A study of Mus musculus with 24 samples.

Results

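A set of 10 genes of Wnt and Eph signalling was followed through secretory cells sorted from mouse intestinal crypts. They were the ligands Wnt3, Wnt6, Wnt9b and Wnt11, the Frizzled receptors Fzd5 and Fzd7, the co-receptors Lrp5 and Lrp6, and the guidance receptors Ephb2 and Ephb3. The members were given by name and found by matching the gene identifiers of the count files to GRCm38 gene symbols, and all 10 of 10 were found among 45513 genes. RNA was counted in 24 libraries, 6 from each of 4 groups, with 36 to 65.8 M counts (M for mega) per library.

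All mice were homozygous for a tamoxifen-inducible Cre (CreERT2) knocked in behind the Atoh1 coding sequence and carried the R26R tdTom reporter on a C57BL/6 background. WT mice (Atoh1(WT)CreERT2) kept the normal ATOH1 protein. In 9S/T-A mice (Atoh1(9S/T-A)CreERT2) the 9 serine or threonine sites that precede a proline were changed to alanine. Every mouse had a single 3 mg dose of tamoxifen, and EpCAM+ tdTom+ live cells were sorted the following day from crypt-enriched proximal small intestine (SI) or from colon. Genotype and tissue gave 4 groups, here called WT SI and WT colon, 9S/T-A SI and 9S/T-A colon, each with 3 female and 3 male libraries, and the controls carried the same Cre knock-in and received the same tamoxifen as the mutants. Cre was driven by Atoh1 itself, so a cell was collected only if it had made Atoh1, and the libraries held a mixture of the labelled cells. Animal ages by library and the mice behind each replicate number were not given in the labels, so p-values measure the spread between these libraries.

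Wnt proteins are secreted lipid-modified ligands that bind a Frizzled receptor together with Lrp5 or Lrp6. The bound complex protects beta-catenin from destruction, and beta-catenin then acts with TCF factors on target genes. In the SI crypt, Paneth cells and the surrounding stroma are known sources of Wnt, and Wnt3 is the ligand for which Paneth cells are best known. Ephb2 and Ephb3 are Wnt target genes whose products meet ephrin-B ligands on neighbouring cells and keep cell types in their places along the crypt axis. ATOH1 is the basic helix-loop-helix factor needed for secretory cells, and its products in the crypt are goblet, Paneth and enteroendocrine cells.

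The labelled cells carried the markers of secretory cells in both tissues, and the sums of several marker lists did not overlap between tissues. The summed level of 10 Paneth cell markers was 56584 to 93185 CPM (counts per M, scaled by trimmed mean of M values) for WT SI, with 44384 to 70001 CPM for 9S/T-A SI. In WT colon it was 883 to 2036 CPM and in 9S/T-A colon 1086 to 2650 CPM, and no Paneth marker was under 0.05 CPM in any group. The 10 goblet cell markers summed to between 315307 and 508378 CPM over the SI libraries and to between 36313 and 83332 CPM over the colon libraries. The absorptive cell list summed to between 3077 and 7550 CPM in SI and to between 518.4 and 744.7 CPM in colon, and the enteroendocrine list to between 272.5 and 626.3 CPM and between 59.9 and 131.6 CPM. Stromal and endothelial markers were low, with sums of 5.06 to 20.8 CPM over all libraries and with Col1a2, Col3a1, Pdgfra, Dcn, Lum and Foxl1 each under 0.05 CPM in every group. The leukocyte list summed to 1553 to 2875 CPM in SI, to 8.89 to 17.3 CPM in WT colon and to 15.4 to 472 CPM in 9S/T-A colon. Between genotypes in colon, 1 of its 4 tested genes passed the edgeR test, Cd74, higher in 9S/T-A (log2 fold change 4.56). Ptprc (-0.40), Itgam (-0.21) and Lyz2 (0.59) did not pass, and 0.318% of all tested genes did. Lyz2, a close copy of the Paneth gene Lyz1 with which it shares sequence, held 2318 CPM of that list in WT SI, and the pan-leukocyte gene Ptprc was at 5.37 CPM there. Atoh1 RNA was present in every library, from 57.7 to 124 CPM, and its genotype difference passed the test neither in SI (log2 fold change -0.30, edgeR adjusted p = 0.23) nor in colon (-0.24, adjusted p = 0.558). The gene count does not read the altered codons, so it is no check of the allele.

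The levels of 4 members differed between SI and colon with no overlap of libraries in either genotype, and the sequence around their start sites is shown for that reason. In how many of all genes the tissues were apart in this way was not counted. In edgeR, 63.6% of all tested genes passed an adjusted p of 0.05 between tissues in WT and 60.9% in 9S/T-A. Wnt3 (ENSMUSG00000000125, chromosome 11, 103774150 to 103817957, plus strand) and Wnt9b (ENSMUSG00000018486, chromosome 11, 103727364 to 103749821, minus strand) are divergent neighbours, with 24.3 kb and 0 annotated genes between them. Fzd7 (ENSMUSG00000041075) lies on chromosome 1 from 59482424 to 59486955 and Ephb2 (ENSMUSG00000028664) on chromosome 4 from 136647539 to 136835988. RefSeq windows of 300 bases (GRCm38.p6), with 250 bases before and 50 after the annotated start, were found for 8 of the 10 members. They were searched on both strands for the core motif of TCF factors, CTTTGA or CTTTGT, which is shown in capitals. They are printed 5′ to 3′ on the strand of the gene.
Wnt3, chr11:103773925-103774224, plus strand: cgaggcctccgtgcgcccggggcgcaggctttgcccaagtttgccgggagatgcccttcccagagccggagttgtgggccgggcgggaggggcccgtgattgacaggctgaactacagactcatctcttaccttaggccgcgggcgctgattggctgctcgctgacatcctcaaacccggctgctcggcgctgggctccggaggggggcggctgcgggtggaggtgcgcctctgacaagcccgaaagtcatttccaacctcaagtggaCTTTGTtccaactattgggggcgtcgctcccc
Wnt9b, chr11:103749772-103750071, minus strand: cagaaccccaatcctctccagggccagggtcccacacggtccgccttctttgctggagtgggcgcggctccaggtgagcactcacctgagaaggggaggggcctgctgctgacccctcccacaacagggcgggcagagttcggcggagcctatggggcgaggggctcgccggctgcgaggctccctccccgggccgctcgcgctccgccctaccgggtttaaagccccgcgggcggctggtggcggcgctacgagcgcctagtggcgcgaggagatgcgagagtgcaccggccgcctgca
Fzd7, chr1:59481897-59482196, plus strand: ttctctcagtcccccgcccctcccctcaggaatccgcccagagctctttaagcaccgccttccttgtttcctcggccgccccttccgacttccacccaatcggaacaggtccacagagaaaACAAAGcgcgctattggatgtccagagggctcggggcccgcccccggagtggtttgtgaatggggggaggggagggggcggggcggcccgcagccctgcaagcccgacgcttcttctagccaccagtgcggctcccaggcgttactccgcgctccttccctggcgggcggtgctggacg
Ephb2, chr4:136835963-136836262, minus strand: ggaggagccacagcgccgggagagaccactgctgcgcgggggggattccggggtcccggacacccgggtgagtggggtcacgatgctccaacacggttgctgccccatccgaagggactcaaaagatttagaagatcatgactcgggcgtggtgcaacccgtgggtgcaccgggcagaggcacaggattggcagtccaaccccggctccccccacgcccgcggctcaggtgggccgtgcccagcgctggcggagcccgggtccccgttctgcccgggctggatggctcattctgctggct

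The Wnt3 window held 1 match that begins at position 19 after the start, and the Fzd7 window held 1 match, on the opposite strand, that begins at position -129. The Wnt9b and Ephb2 windows held 0 matches. Counting every member with a window, 3 of 8 had a match (Wnt3, Fzd7 and Wnt11), while 31.2% of all 32851 RefSeq windows of this length had one. Wnt11 had a further window without a match, so the 8 members had 9 windows. The E-box CAGCTG, which is its own reverse complement and a motif of the kind that ATOH1 binds, was found in the window of 1 member, Ephb3, and in 16.3% of all windows. Matches of this length are a description of the letters in these windows. The RefSeq start of Fzd7 lies 277 bases upstream of the start in the count files, and the windows of Wnt3 and Ephb2 are centred within 25 and 24 bases of theirs.

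Among the ligands, Wnt3 was the main Wnt message of the labelled SI cells and was close to absent in colon. In WT SI it stood at 23.2 CPM in the lowest library, 26.9 CPM at the median and 32.7 CPM in the highest. In 9S/T-A SI the same values were 15.6, 22.7 and 29.3 CPM. In WT colon they were 0.116, 0.211 and 0.422 CPM, and in 9S/T-A colon 0.0831, 0.148 and 0.261 CPM. Every SI library was above every colon library by a wide margin, while the genotypes overlapped within each tissue. In counts, 6754 were summed over WT SI against 93 over WT colon, a depth-scaled ratio of 115.9 with a 95% counting interval from 94.5 to 143.8. The ratio in 9S/T-A was 147.4 (115.3 to 191.7), from 5687 against 64 counts. These intervals cover counting error only.

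Wnt9b, the neighbour of Wnt3 and a ligand better known from kidney development, had the same tissue distribution at a much lower level. It was at 0.543, 0.764 and 0.929 CPM (lowest, median and highest) in WT SI and at 0.432, 0.498 and 0.629 CPM in 9S/T-A SI. Colon was almost empty of it, with 2 counts over the 6 WT libraries and 0 counts over the 6 9S/T-A libraries. The SI to colon ratio was 149.2 in WT, with a wide counting interval of 40.7 to 1241 because it rests on 2 counts. In 9S/T-A, Wnt9b was at least 73-fold higher in SI, set against a floor of 3 counts over the group.

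**Figure D1:**
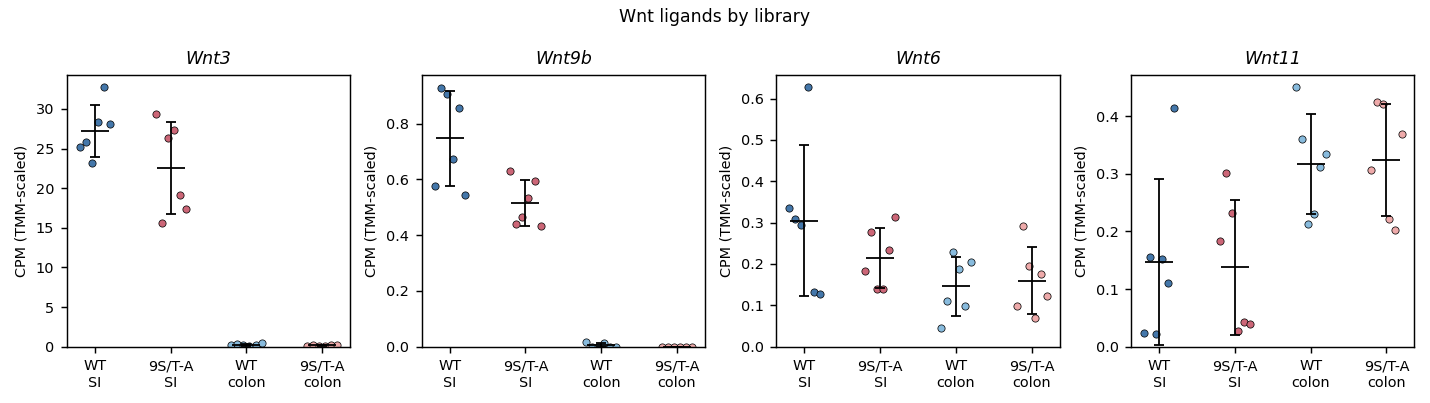
TMM-scaled CPM (linear axes from 0) of the 4 ligands in each of the 24 libraries, by group; each point is 1 library, the bar is the mean and the whiskers are 1 SD (n = 6). Wnt3 and Wnt9b stand high in SI and near 0 in colon, while Wnt6 and Wnt11 stay under 0.7 CPM in all groups and overlap between tissues.

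Wnt6 and Wnt11, both at the edge of detection, did not share that pattern. Wnt6, a ligand known from epithelia and their underlying stroma, was at 0.128 to 0.629 CPM in WT SI, 0.139 to 0.314 CPM in 9S/T-A SI, 0.045 to 0.228 CPM in WT colon and 0.0692 to 0.293 CPM in 9S/T-A colon. Wnt11, a ligand of the beta-catenin-independent branch, ran the other way, with medians of 0.131 and 0.113 CPM in WT and 9S/T-A SI and of 0.323 and 0.338 CPM in the colon groups. All 4 groups overlapped for Wnt6, and the tissues overlapped for Wnt11 in both genotypes. A single SI library had as few as 4 Wnt6 counts and as few as 1 Wnt11 count.

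Across the whole ligand family, colon cells had little Wnt message of any kind, from Wnt3 or from the other ligands. Levels are compared between genes per kilobase of exon (RPKM). The 19 Wnt genes summed to 10.4 ± 0.995 RPKM (SD, n = 6) in WT SI and 9.92 ± 1.68 RPKM in 9S/T-A SI, but to 0.721 ± 0.0839 and 0.766 ± 0.16 RPKM in WT and 9S/T-A colon. Wnt3 made up 84.7% ± 2.76 of the WT SI sum and 72.8% ± 6.78 of the 9S/T-A SI sum. In colon the highest ligand was Wnt5a, a ligand of the beta-catenin-independent branch, with 35.0% ± 7.82 of the sum in WT and 31.4% ± 8.09 in 9S/T-A, and Wnt3 held 10.4% ± 4.39 and 6.35% ± 1.55. Wnt11 came to 12.0% ± 2.49 and 11.5% ± 1.84 of the colon sums. Only Wnt3 reached 1 RPKM in WT SI, Wnt3 and Wnt9a did in 9S/T-A SI, and 0 of 19 did in either colon group. In bulk libraries, fewer cells of a type and less RNA per cell cannot be told apart. Several marker lists moved with tissue in the same direction as Wnt3 and Wnt9b, and their part in these levels was not tested. Lower in WT and 9S/T-A colon were 9 and 7 of 10 Paneth markers, 8 and 8 of 10 absorptive markers, 8 and 8 of 10 enteroendocrine markers, and 7 and 7 of 10 goblet markers. Of the leukocyte markers, 6 and 5 of 7 tested were lower, as were 9 and 6 of 9 tested tuft markers. Cycling markers were lower in 10 and 3 of 10, and stem cell markers in 6 and 5 of 10. Higher in colon were 1 and 2 Paneth, 1 and 1 absorptive, 2 and 2 enteroendocrine, and 1 and 1 goblet markers. A further 0 and 2 leukocyte and 2 and 2 stem cell markers were higher, and 0 tuft or cycling markers. Over all tested genes, 30.4% and 28.0% were lower in colon. Some of these marker calls depend on the scaling. With plain library totals in place of TMM, the cycling markers Pcna (0.17) and Mcm2 (0.08) changed sign in WT. The stem cell marker Prom1 was at 0.27 and Lgr5 at -0.28 (edgeR adjusted p = 0.14). Mki67 (-0.69), the Paneth gene Lyz1 (-9.20) and Wnt3 (-6.16) stayed lower in WT colon.

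Fzd5, the Frizzled receptor linked to Wnt signalling in Paneth cell maturation, was the most abundant receptor of the family in all 4 groups and varied little between them. It was at 63.0, 75.7 and 86.3 CPM in WT SI (lowest, median and highest), at 55.9, 64.8 and 77.7 for 9S/T-A SI, 65.0, 71.7 and 83.0 in WT colon and 59.5, 68.5 and 71.1 in 9S/T-A colon. The 4 groups overlapped throughout. On the RPKM scale Fzd5 held between 40.3% and 44.2% of the summed Frizzled level as a group mean, and that sum itself stayed between 22.9 and 24.8 RPKM over the group means.

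Fzd7, a Frizzled receptor of Lgr5+ stem cells, fell from SI to colon in both genotypes. Its lowest, median and highest values were 19.3, 21.6 and 23.0 CPM in WT SI, with 19.4, 23.3 and 25.8 CPM for 9S/T-A SI. In colon they were 8.87, 10.3 and 11.1 CPM in WT and 8.45, 9.16 and 10.5 CPM in 9S/T-A. No colon library reached an SI library. Its share of the Frizzled sum went from 19.8% ± 1.98 in WT SI to 9.19% ± 1.07 in WT colon, and from 21.9% ± 3.12 to 8.98% ± 1.14 in 9S/T-A. Fzd1 ranked behind Fzd5 in colon, at 2.95 ± 0.501 RPKM in WT against 0.619 ± 0.14 RPKM in WT SI.

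**Figure D2:**
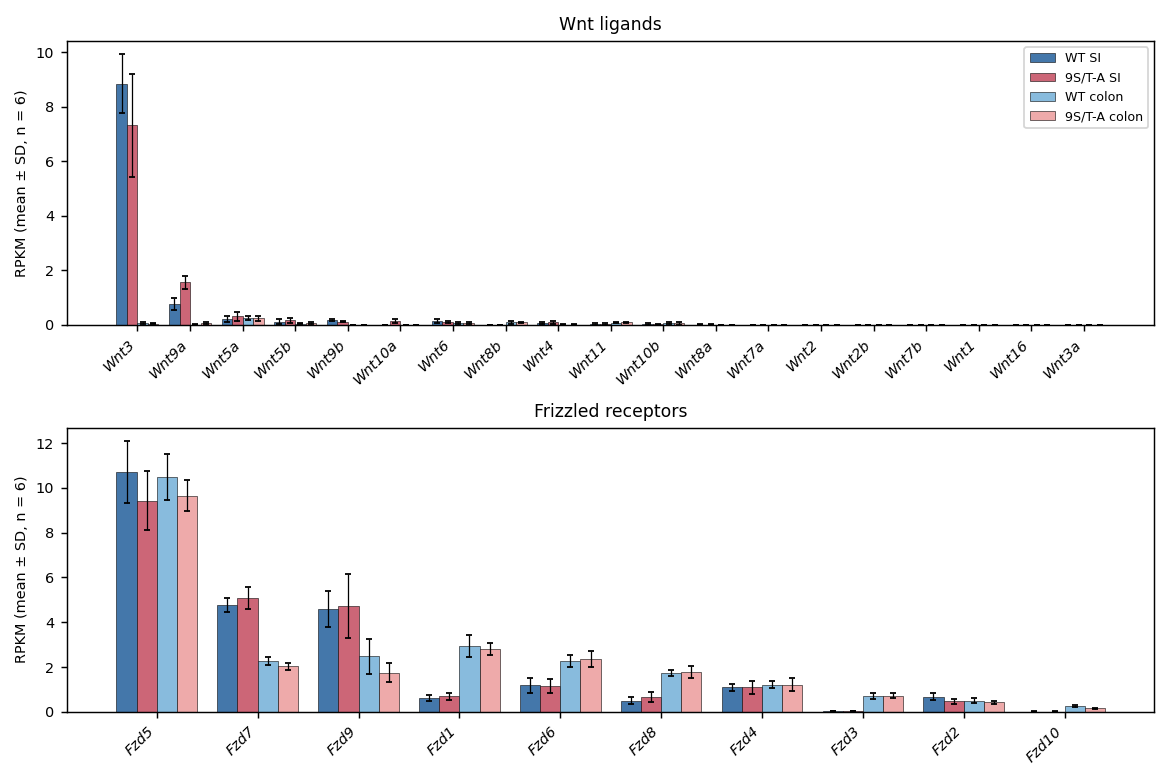
Mean RPKM with SD (n = 6 libraries) of all 19 Wnt ligands and all 10 Frizzled receptors in the 4 groups, with genes ordered by their highest group mean. Wnt3 towers over the other ligands in SI and is near 0 in colon, while Fzd5 leads the receptors at 9.43 to 10.7 RPKM in every group.

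The co-receptors Lrp5 and Lrp6, which pair with Frizzled in beta-catenin signalling, had similar levels in all groups. Lrp5 was at 99.6 to 108.1 CPM in WT SI, 96.0 to 108.8 CPM in 9S/T-A SI, 77.9 to 114.6 CPM in WT colon and 73.8 to 119.5 CPM in 9S/T-A colon. Lrp6 was at 54.0 to 65.2, 62.6 to 64.7, 63.1 to 72.9 and 63.7 to 76.4 CPM in the same order. Groups overlapped for both genes in every comparison.

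Ephb2 was higher in colon than in SI in every library of both genotypes. It was at 54.7, 63.8 and 68.8 CPM (lowest, median and highest) in WT SI and at 41.3, 52.1 and 61.1 CPM in 9S/T-A SI. In colon it was at 85.5, 109.7 and 114.5 CPM in WT and at 77.1, 118.0 and 123.9 CPM in 9S/T-A. Its partner Ephb3 was at 36.6, 40.7 and 54.9 CPM in WT SI and at 27.2, 33.2 and 41.9 CPM in 9S/T-A SI. In colon Ephb3 was at 40.3, 48.7 and 58.7 CPM in WT and at 48.1, 54.8 and 60.7 CPM in 9S/T-A. Its tissues overlapped in WT and were apart in 9S/T-A. The libraries of replicate number 7 gave the lowest colon value of Ephb2 and of Lrp5 in both genotypes, at 85.5 and 77.1 CPM for Ephb2 and 77.9 and 73.8 CPM for Lrp5 in WT and 9S/T-A.

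**Figure D3:**
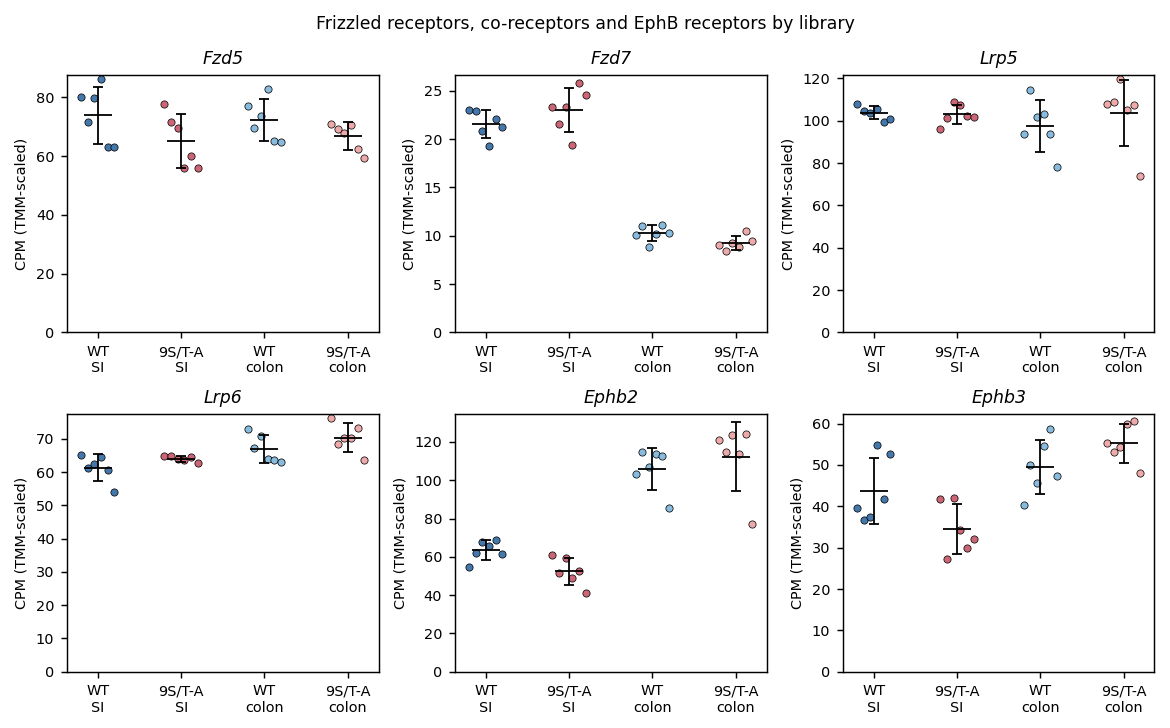
TMM-scaled CPM (linear axes from 0) of the Frizzled receptors, co-receptors and EphB receptors in each library by group; each point is 1 library, the bar is the mean and the whiskers are 1 SD (n = 6). Fzd7 is lower and Ephb2 higher in both colon groups with no overlap, and Fzd5, Lrp5 and Lrp6 overlap between all groups.

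Ordered by RPKM, Lrp5 led in WT SI (10.7 ± 0.322), followed by Fzd5 (10.7 ± 1.39), Wnt3 (8.85 ± 1.08), Ephb3 (6.96 ± 1.26), Lrp6 (6.24 ± 0.41), Ephb2 (5.03 ± 0.41), Fzd7 (4.76 ± 0.314), Wnt9b (0.165 ± 0.0378), Wnt6 (0.139 ± 0.0835) and Wnt11 (0.0403 ± 0.0397). In 9S/T-A SI, Lrp6 passed Ephb3 and Fzd7 passed Ephb2, and the rest of the order was as in WT SI. Wnt3 thus stood among receptors in SI, at rank 3 of 10, and between Wnt11 and Wnt6 or below both in colon. In WT colon the order opened with Fzd5 (10.5 ± 1.02), Lrp5 (10 ± 1.27), Ephb2 (8.41 ± 0.87) and Ephb3 (7.86 ± 1.04), and in 9S/T-A colon with Lrp5 (10.6 ± 1.59), Fzd5 (9.66 ± 0.685), Ephb2 (8.92 ± 1.41) and Ephb3 (8.78 ± 0.738). Of 36 pairs of neighbours in these orders, 0 differed after correction by the exact two-sided sign-flip permutation test over 6 libraries, which cannot give a p under 0.0312 or, here, an adjusted p under 0.0865. The steps from Fzd7 or Ephb2 down to the next ligand were 4.41 to 5.07 on the log2 scale and held in 6 of 6 libraries of each group.

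The question of the genotype comparison was whether unphosphorylatable ATOH1 changes the state of secretory cells. In SI, 0 of the 9 members tested passed an adjusted p of 0.05 in edgeR's quasi-likelihood test, where 1.94% of all tested genes did. Wnt11 did not pass the filter on low counts there. An unadjusted p under 0.05 was reached by 3 members, Wnt9b, Ephb2 and Ephb3, as had 2556 of all 16236 genes, and DESeq2 called 0 members. Each of the 3 was lower in 9S/T-A, with 6 of 6 libraries under the WT mean, yet with overlapping groups. Lrp6, nearly flat at 0.06 (edgeR adjusted p = 0.662), likewise had 6 of 6 libraries on 1 side, above the WT mean. The log2 fold change was -0.54 for Wnt9b (SE 0.206, adjusted p = 0.211), -0.28 for Ephb2 (SE 0.0926, adjusted p = 0.157) and -0.34 for Ephb3 (SE 0.131, adjusted p = 0.216). Wnt3 was at -0.28 (SE 0.151, adjusted p = 0.402), with 4 of 6 libraries under the WT mean. Fzd5 was at -0.18 (SE 0.104) and Wnt6 at -0.50 (SE 0.383), while Fzd7, Lrp5 and Lrp6 lay between -0.01 and 0.09. The median over the 9 members was -0.28, against 0.00 over all genes. Of the 10 Paneth markers, 5 were lower and 0 higher in 9S/T-A SI. Also lower were 2 of 9 tested tuft, 1 of 10 stem cell and 1 of 3 tested stromal and endothelial markers. Of the 10 enteroendocrine markers, 1 was lower and 1 higher, and 0 goblet, absorptive, cycling or leukocyte markers were called. Over all 16236 tested genes, 147 were lower and 168 higher. The part of these differences in the members' values was not tested.

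In colon, 0 of the 9 members tested passed, where 0.318% of all genes did, and Wnt9b had too few counts to be tested. No member had an unadjusted p under 0.05, as 1497 of all 16997 genes had, and DESeq2 called 0 members. Ephb3 had the lowest p, at 0.18 on the log2 scale (SE 0.0874, edgeR adjusted p = 0.592). Wnt3, at 93 and 64 counts over the WT and 9S/T-A groups, was at -0.62 (SE 0.354, adjusted p = 0.698), a difference that is not detectable at this depth. The other members lay between -0.13 (Fzd7) and 0.12 (Wnt6), with adjusted p from 0.74 to 1.0.

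Ephb2 and Ephb3 thus had negative values in SI and positive ones in colon. The test of that difference, the product of genotype and tissue over all 24 libraries, called 0 of 10 members, where it called 0.412% of all genes. An unadjusted p under 0.05 was reached by 3 members, as by 1740 genes in all, and DESeq2 called 0 members. The difference of log2 fold changes was 0.50 for Ephb3 (SE 0.166, adjusted p = 0.225), 0.36 for Ephb2 (SE 0.149, adjusted p = 0.396) and -0.24 for Fzd7 (SE 0.108, adjusted p = 0.453). Genotype and tissue comparisons share libraries, so their values are not independent of each other.

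Between tissues, 6 of 10 members were called in WT, 4 lower and 2 higher in colon, where 63.6% of all tested genes were called (30.4% lower and 33.1% higher). In 9S/T-A, 6 of 10 were called, 3 lower and 3 higher, against 60.9% of all genes (28.0% lower and 32.9% higher). The share of members called was therefore near that of all genes. Wnt3, Wnt9b and Fzd7 fell and Ephb2 and Wnt11 rose in both genotypes, Wnt6 fell in WT and Ephb3 rose in 9S/T-A.

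Wnt3 changed on the log2 scale by -6.87 (SE 0.215, edgeR adjusted p = 6.42e-13) in WT and of -7.23 (SE 0.255, adjusted p = 3.53e-12) in 9S/T-A. Wnt9b was called with an adjusted p of 4.32e-09 and 2.88e-07, and its size is given by the count ratios and the bound above. Fzd7 changed by -1.10 (SE 0.0802, adjusted p = 9.88e-09) and -1.34 (SE 0.0892, adjusted p = 5.08e-09). Ephb2 rose by 0.71 (SE 0.0813, adjusted p = 1.83e-06) in WT and by 1.07 (SE 0.121, adjusted p = 1.84e-06) in 9S/T-A.

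Ephb3 rose by 0.65 (SE 0.11, adjusted p = 0.000111) in 9S/T-A and was at 0.14 (SE 0.115, adjusted p = 0.295) in WT, a gap that the product of genotype and tissue did not pass. With plain totals Ephb3 was called in WT too, at 0.85 (adjusted p = 3.45e-05), and at 0.11 relative to the shifted median. The calls on the scarce ligands were weak. Wnt6 was at -1.10 (SE 0.43, adjusted p = 0.0353) in WT and at -0.49 (SE 0.368, adjusted p = 0.268) in 9S/T-A, and the WT call was lost on leaving out any of WT SI 2, 3, 4 and 5 or WT colon 2, 3 and 6, with adjusted p up to 0.159. Wnt11 was at 1.15 (SE 0.477, adjusted p = 0.0453) in WT and at 1.20 (SE 0.47, adjusted p = 0.0374) in 9S/T-A. Its WT call was lost without any of WT SI 2 to 6 or WT colon 2, 3, 6 and 7, with adjusted p up to 0.0932. Its 9S/T-A call was lost without any of 9S/T-A SI 5, 6 and 7 or 9S/T-A colon 2, 3, 4 and 7, with adjusted p up to 0.0835.

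Fzd5, Lrp5 and Lrp6 were not called in either genotype, with log2 fold changes from -0.12 to 0.11 and SE from 0.0613 to 0.0984. That statement depends on the scaling. With plain library totals in place of TMM, the median of all genes moved to 0.74 in WT and 0.85 in 9S/T-A, all 3 were called higher in colon, and calls split 12241 higher to 1903 lower in WT and 12546 to 1653 in 9S/T-A, against 5625 to 5169 and 5576 to 4743. Relative to that median, Fzd5 was at -0.09 and -0.04, Lrp5 at -0.15 and -0.07 and Lrp6 at 0.07 and 0.06. Wnt3 was at -6.90 and -7.28, Fzd7 at -1.12 and -1.38 and Ephb2 at 0.67 and 1.02.

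**Figure D4:**
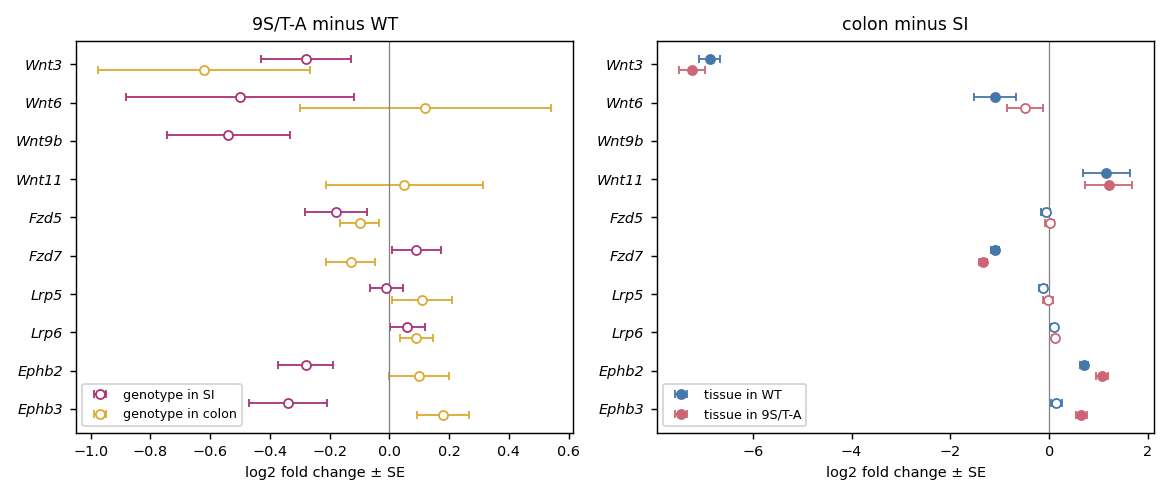
Log2 fold change with SE from edgeR for the members, 9S/T-A minus WT within each tissue (left) and colon minus SI within each genotype (right); filled points have an adjusted p under 0.05. No genotype point is filled, Wnt3 lies near -7 in both genotypes, and points are left out where a member was not tested or, for Wnt9b between tissues, where only a count ratio or a bound is given.

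The machinery that releases and receives these ligands also differed between tissues, in both directions. Wls, which carries Wnt proteins to the cell surface, rose in colon by 1.52 (SE 0.0962, edgeR adjusted p = 1.96e-09) in WT and by 1.53 in 9S/T-A. Porcn, which adds the lipid that Wnt proteins need, changed by -1.11 (SE 0.114, adjusted p = 5.45e-07) and -1.33. Neither passed in the genotype comparisons. Of 8 other Frizzled genes, 5 rose and 2 fell in colon in WT, where 33.1% and 30.4% of all tested genes did. In 9S/T-A 5 rose and 1 fell, where 32.9% and 28.0% of all tested genes did. With plain totals 6 rose and 0 fell in WT and 7 rose and 1 fell in 9S/T-A. Fzd3, a receptor of planar polarity in neurons, rose by 4.23 and 4.19, from 0.153 to 2.98 CPM in WT. Fzd9 fell with Fzd7, with log2 fold changes of -0.92 in WT and -1.47 in 9S/T-A, and was at 10.5 and 10.9 CPM in SI. With plain totals it was at -0.21 (adjusted p = 0.32) in WT and -0.66 in 9S/T-A.

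Of 9 planar polarity genes and other Wnt receptors, 8 rose and 0 fell in WT colon, and 9 of 9 rose in 9S/T-A colon. Over all tested genes, 33.1% and 32.9% rose. The median log2 fold changes of the list were 0.91 and 1.38, against 0.03 and 0.04 over all genes. Ror1, a Wnt5a receptor, went from 0.0291 to 5.58 CPM in WT, and Celsr1, a planar polarity cadherin, from 22.6 to 109.5 CPM. Vangl1, a core planar polarity protein, was called in the product of genotype and tissue, at 0.78 (SE 0.154, adjusted p = 0.0163), as the 1 gene of the 9. With the replicate block 3 of the 9 were called, Vangl1 (adjusted p = 0.0206), Vangl2 (0.0459) and Ror2 (0.0439), and DESeq2 called Vangl1 and Vangl2. The block called 342 of all 17953 genes, where the main fit called 74. In the main edgeR fit Vangl2 was at an adjusted p of 0.0696 and Ror2 at 0.257. On leaving out each library, Vangl1 was called in 24 of 24 fits, Vangl2 in 2 and Ror2 in 0. Vangl1 was at 2.47 ± 0.288 and 1.91 ± 0.197 CPM in WT and 9S/T-A SI and at 10 ± 1.26 and 13.3 ± 1.8 CPM in WT and 9S/T-A colon.

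R-spondins and their Lgr receptors raise the number of Frizzled molecules at the cell surface by removing the ligases Rnf43 and Znrf3. Of the 9 genes of this list 4 were tested, and Lgr4, Lgr5 and Rnf43 fell in colon relative to the median gene in both genotypes. Lgr5, the stem cell marker, changed by -1.0 (SE 0.154) in WT and -1.20 (SE 0.237) in 9S/T-A, from 21.4 ± 4.21 to 10.9 ± 2.42 CPM in WT. With plain totals it was at -0.28 (adjusted p = 0.14) and -0.37 (adjusted p = 0.199), so its call was lost, and at -1.02 and -1.22 relative to the shifted median. Rnf43 changed by -0.55 and -0.49, but its sign turned with plain totals (0.16 and 0.32), as did that of Lgr4 (0.16 and 0.40), and both remained lower relative to the shifted median (-0.58 for each in WT). Lgr4 was the gene of the list called between genotypes, at -0.33 (SE 0.0745, adjusted p = 0.0356) in SI, where WT libraries averaged 122.1 ± 7.38 CPM and 9S/T-A libraries 97.3 ± 9.82 CPM. The call was lost with no filter (adjusted p = 0.0611), with all libraries in 1 fit (0.0569) and without number 7 (0.0606). It was also lost on leaving out any of the 6 WT SI libraries or 9S/T-A SI 4, 5 and 6, with adjusted p up to 0.0868.

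Inside the cell, 10 of 15 tested genes of Wnt signal transduction were lower and 2 higher in colon in both genotypes. Of all tested genes, 30.4% were lower in WT and 28.0% in 9S/T-A. With plain totals 0 of the 15 were lower and 11 higher, so these falls are relative to the median gene. Ctnnb1, which encodes beta-catenin, changed by -0.37 and -0.34 (0.35 and 0.46 with plain totals). Tcf7l1 and Tcf7l2 encode TCF factors and moved apart, with Tcf7l1 rising by 6.02 in WT, from 0.696 to 45.9 CPM, and Tcf7l2 changing by -0.91. Of 14 tested Wnt target genes, 4 rose and 5 fell in WT and 4 rose and 4 fell in 9S/T-A, and with plain totals 8 rose and 2 fell and 9 rose and 2 fell. The share of targets called was near the 63.6% and 60.9% of all genes. Axin2, a feedback target, changed by -0.38 (SE 0.0964, adjusted p = 0.00271) in WT (0.33 with plain totals) and was at -0.23 (adjusted p = 0.0805) in 9S/T-A, while Cd44 rose by 1.38 and 1.43.

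Of the 3 ephrin-B ligands, which bind EphB receptors, Efnb1 and Efnb2 fell in colon in both genotypes, although the sign of Efnb1 turned with plain totals (0.25 in WT and 0.08 in 9S/T-A). Efnb3 was at -0.75 (adjusted p = 0.118) in WT and -0.53 (adjusted p = 0.287) in 9S/T-A. Efnb1 changed by -0.46 (SE 0.0874, adjusted p = 0.000265) in WT and -0.72 in 9S/T-A, and Efnb2 by -1.18 (SE 0.124, adjusted p = 6.55e-07) and -1.52. Summed per length, the 5 EphB receptors went from 28.9 ± 2.84 RPKM in WT SI to 51.0 ± 1.96 in WT colon and from 23.9 ± 2.73 to 54.1 ± 4.32 in 9S/T-A. The 3 ephrin-B ligands went from 48.7 ± 4.88 to 30.3 ± 3.16 RPKM in WT and from 54.3 ± 6.23 to 27.5 ± 2.97 in 9S/T-A. Ephb4 was the highest receptor of the family in every group, at 16.8 ± 2.83 RPKM in WT SI and 34.3 ± 0.899 in WT colon.

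Of the 15 other Wnt ligands, few were expressed. Wnt9a was the ligand called between genotypes in SI, where 4 of the 15 were tested. It was at 1.64 to 3.48 CPM in WT and 3.91 to 6.11 CPM in 9S/T-A, without overlap, which is 1.03 on the log2 scale (SE 0.18, edgeR adjusted p = 0.00715). In colon it did not pass the filter on low counts, with 20 counts over WT and 108 over 9S/T-A, or 0 to 0.116 CPM against 0.108 to 0.375 CPM. There it had an adjusted p of 0.1 with no filter, 0.0736 with a mean of at least 10 counts and 0.00348 with all libraries in 1 fit. The product of genotype and tissue was at 1.25 (SE 0.465, adjusted p = 0.315). Between tissues it changed by -5.63 in WT and -4.38 in 9S/T-A. Wnt9a thus brought 16.3% ± 4.2 of the summed Wnt level in 9S/T-A SI, against 7.41% ± 2.2 in WT SI.

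The genes whose levels ran most like those of the members were taken by Pearson correlation of log2(CPM + 1) over the 24 libraries. The libraries form 2 tissue clusters, so r mainly reflects the tissue gap and is a description. Wnt3 ran closest to Habp2 (0.998) and to the Paneth defensins Defa27 (0.998) and Defa3 (0.997), with 82 genes within 0.01 of the last of these. Wnt9b ran closest to Pgc (0.982), Pitx1 (0.981) and Tbc1d9 (0.978). Fzd7 ran closest to Myrfl (0.983), Onecut2 (0.982) and Slc3a1 (0.982), and Ephb2 to Ptk7 (0.977), Ror2 (0.977) and H6pd (0.974). Ptk7 and Ror2 are Wnt receptors of the planar polarity list. Fzd5, Lrp5, Lrp6 and Ephb3, with smaller or no tissue gaps, had best values of 0.863, 0.908, 0.9 and 0.857, and for the scarce Wnt6 and Wnt11 they were 0.737 and 0.836.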

How the data were processed

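Per the labels and the file headers, the authors mapped stranded single-end reads with TopHat2 (2.1.1) to GRCm38 and deposited raw counts per gene from featureCounts (Subread 1.5.2, exons, strand setting 2, primary alignments), with no normalization. Symbols came from GENCODE M21. The quasi-likelihood test of edgeR 4.0.16 (R 4.3.3, filterByExpr, TMM, two-sided) compared genotypes in each tissue, tissues in each genotype, and the product of both in all 24 libraries. P-values were adjusted over all tested genes by Benjamini and Hochberg and called under 0.05. SE was derived from the F statistic. CPM were TMM-scaled over all libraries and divided by exon length for RPKM, and RPKM entered the order of levels as log2(RPKM + 0.01). Scripts were tested on simulated data.

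Of 60 same-group library pairs, 0 were identical. Replicate numbers 2 to 7 recur in every group and the labels do not say what they mark. Numbers 2, 5 and 7 were female and 3, 4 and 6 male in all 4 groups, so same-numbered libraries also shared their sex. The part of sex in their correlation was not tested. Across tissues, same-numbered libraries deviated together in 6 of 6 pairs of each genotype (lowest r of 0.168 for WT, 0.159 for 9S/T-A). A fit with number as a block was therefore run beside each tissue result and the product. In the product the block was the number within each genotype. The block changed no member's call. Alternatives were DESeq2 1.42.0, RLE factors, plain totals, no filter, sex as a covariate, a filter at a mean of 10 counts, the block, all libraries in 1 fit, a threshold of 0.1 and leaving out each library. The named genes were all members, fixed pathway genes, and list genes called by genotype, by the product or with the largest tissue changes. Members, lists and tests were chosen with earlier results of these data known.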

Additional observations from a re-analysis of the deposited data

Results flagged for a closer look

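Of the member values, 3 stood far from the other libraries of their group, out of 40 member and group pairs checked, and chance flags about 1 in 20 such groups. Wnt11 was at 0.415 CPM in WT SI replicate 7, where the next highest library had 0.155 CPM. Lrp5 was at 73.8 CPM in 9S/T-A colon replicate 7, below the next lowest at 104.9 CPM. Ephb2 was at 77.1 CPM in the same library, below the next lowest at 113.5 CPM.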

How the results depend on the processing

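In the genotype comparisons and in the product of genotype and tissue, 0 members were called under every alternative run, leaving out each library included. The lowest adjusted p of a member was 0.063 in SI (Ephb2, without 9S/T-A SI replicate 2), 0.139 in colon (Ephb3, replicate block) and 0.0573 in the product (Ephb2, replicate block). Between genotypes, same-numbered libraries correlated above 0.1 in 4 of 6 pairs in SI (lowest -0.0949) and 5 of 6 in colon (lowest 0.0197). Each library correlated best with its own number in 1 and 3 of 6, against 4 and 4 between tissues in WT and 9S/T-A. The mean same-number r was 0.192 in SI but 0.412 in colon, above the 0.289 and 0.366 between tissues. The number was not taken as a pairing between genotypes, so the main colon test leaves this shared deviation out. With the replicate block 477 genes were called in SI against 315 and 385 in colon against 54, with 0 members in either.

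Between tissues, members called ranged from 4 to 6 in WT and 5 to 6 in 9S/T-A on leaving out a library. Wnt6 in WT lost its call with no filter (adjusted p = 0.0639) and with plain totals (0.413), and Wnt11 with no filter in WT (0.0638) and 9S/T-A (0.052) and without number 7 in 9S/T-A (0.1), an alternative chosen after seeing the data. With plain totals, values changed sign for Fzd7 (-0.02) and Lrp6 (-0.05) between genotypes in SI, for Fzd5 (0.65) and Lrp5 (0.59) between tissues in WT, and for Wnt6 (0.29) and Lrp5 (0.78) in 9S/T-A, the shift of the median being part of that construction. In 9S/T-A between tissues, Fzd5 was at -0.03 with DESeq2, -0.03 with RLE factors and -0.00 without number 7, and Lrp5 at 0.02 with no filter, 0.01 with all libraries and 0.06 without number 7. Lrp6 there passed with all libraries in 1 fit (0.0383). Wnt11 in the product was at -0.74 without number 7. The cause was not tested.

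On leaving out each library, these small values crossed 0: Fzd5 between tissues (-0.11 to 0.01 in WT and -0.03 to 0.07 in 9S/T-A), Lrp5 between tissues in 9S/T-A (-0.06 to 0.06) and genotypes in SI (-0.03 to 0.01), Wnt6 (-0.13 to 0.29) and Wnt11 (-0.04 to 0.17) between genotypes in colon, and Wnt11 (-0.50 to 0.45) and Lrp6 (-0.01 to 0.07) in the product. Ordered by plain CPM, 25 of 36 neighbouring pairs of levels passed at an adjusted p of 0.045 (the smallest it gave), against 0 by RPKM. Over all genes, DESeq2 called 782 in SI, 250 in colon and 258 in the product (74 by edgeR), the block 342 in the product, all libraries in 1 fit 520 in SI and 103 in colon, no filter 90 and sex 89 in colon, and leaving out number 7 called 43 in the product. Leaving out 1 library gave 188 to 550 in SI, 30 to 72 in colon and 50 to 112 in the product.

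Depth limits the scarce ligands: Wnt9b with 2 and 0 colon counts and Wnt6 and Wnt11 with 33 to 137 counts per group allow no statement on small changes.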

Other observations

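Wnt10a, a ligand 6.2 kb downstream of Wnt6 with 0 annotated genes between them, was chosen after its values were seen. It failed the count filter in SI, and its counts did not overlap between genotypes: 0, 0, 1, 2, 0 and 0 in the WT SI libraries 2 to 7, and 20, 11, 17, 20, 3 and 24 in the 9S/T-A SI libraries. As it was picked for this pattern, no test is given. Over both colon groups it had 1 count. Wnt6 beside it had 78 counts in WT SI against 57 for 9S/T-A SI.

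Some ligands were detected in colon at low levels, with 0 of 19 at 1 RPKM. Wnt8b went from 0 CPM in WT SI to 0.33 CPM in WT colon and from 0.00354 to 0.324 CPM in 9S/T-A. Per length it was at 0.0979 RPKM in WT colon, near the scarce Wnt11 at 0.0872 RPKM. Wnt5a was at 1.72 ± 0.745 CPM in WT SI and 2.0 ± 0.628 CPM in WT colon, with an adjusted p of 0.602. Among secreted Wnt antagonists, 4 of 12 were tested between tissues. Of these, 2 fell in WT colon and 3 in 9S/T-A colon, where 30.4% and 28.0% of all tested genes fell. Sfrp5 fell by 5.18 on the log2 scale in WT, from 13.9 to 0.389 CPM, and Dkk3 by 6.22, from 2.76 to 0.0374 CPM.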
